A study of Rattus norvegicus with 24 samples.

Results

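The endoplasmic reticulum folding and stress genes described here are a list of 40 genes, given by symbol, whose products fold secreted and membrane proteins or sense and answer a folding load. Of these, 38 were measured, among 14217 genes in all, each by the brightest probe set that carried only its symbol over the 24 arrays. Derl3 and Ern1 had no such probe set in the annotation used and were left out. Lung RNA came from the right caudal lobe of male Sprague-Dawley rats aged 17 weeks, with 4 rats and 1 array per rat in each of 6 groups. The groups breathed cigarette smoke and then silica, smoke and Iraqi sand, smoke and clean air, air and silica, air and Iraqi sand, or air on both routes. Smoke was given nose-only at 0.48 mg WTPM per L, 3 hours daily on 5 days of each week, for 5 weeks in the treatment labels and 6 weeks in the design text. Particle exposure was whole-body, at 1 mg per cubic metre, and ran every day of the week (7 days) for 2 weeks, 18 hours daily. The rats of the air group went through the same nose-only and whole-body sessions at a dose of 0. All levels below are RMA values on the log2 scale, where a difference of 1 is a doubling, and levels are compared only within a probe set.

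Proteins that enter the secretory pathway pass through the Sec61 channel into the endoplasmic reticulum, where chaperones and disulfide enzymes fold them and a degradation system removes those that fail. When unfolded protein builds up, the sensors IRE1 (encoded by Ern1), PERK (Eif2ak3) and ATF6 start the unfolded protein response: IRE1 splices the Xbp1 messenger, PERK raises ATF4, and ATF6 is cut to a transcription factor, so that chaperone genes such as Hspa5 are transcribed more. ATF4 also answers amino acid shortage and oxidants and drives genes such as Asns, and, with CHOP (Ddit3), genes such as Trib3 and Chac1. In the lung, secretory airway cells, plasma cells, alveolar type 2 cells and macrophages carry a large endoplasmic reticulum.

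The promoters of 6 of the genes are shown because they span the elements through which these factors act and include the gene that differed most with smoke. Each window runs from 250 bases before to 50 bases after the annotated start, 5′ to 3′ on the gene's strand, as RefSeq gives it for assembly GRCr8. Capitals mark matches on either strand to the endoplasmic reticulum stress element, ERSE (CCAAT, 9 bases, CCACG), the target of ATF6 and XBP1, or to the ATF4-CHOP element, CARE (TGATG, 1 base, AA).
Hspa5 (chr3:38452766-38453065, plus strand): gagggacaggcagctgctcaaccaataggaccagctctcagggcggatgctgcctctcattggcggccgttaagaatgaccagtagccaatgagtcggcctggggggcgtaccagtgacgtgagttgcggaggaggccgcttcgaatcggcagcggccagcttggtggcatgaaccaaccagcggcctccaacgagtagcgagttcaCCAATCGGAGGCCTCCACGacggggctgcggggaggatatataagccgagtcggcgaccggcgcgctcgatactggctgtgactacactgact
Hsp90b1 (chr7:23012244-23012543, minus strand): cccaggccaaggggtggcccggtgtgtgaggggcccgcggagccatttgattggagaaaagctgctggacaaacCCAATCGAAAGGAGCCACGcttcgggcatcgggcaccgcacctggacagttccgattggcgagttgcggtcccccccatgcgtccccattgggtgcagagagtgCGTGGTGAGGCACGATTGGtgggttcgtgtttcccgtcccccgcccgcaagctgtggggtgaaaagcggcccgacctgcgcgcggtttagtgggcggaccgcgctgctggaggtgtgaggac
Canx (chr10:35157808-35158107, minus strand): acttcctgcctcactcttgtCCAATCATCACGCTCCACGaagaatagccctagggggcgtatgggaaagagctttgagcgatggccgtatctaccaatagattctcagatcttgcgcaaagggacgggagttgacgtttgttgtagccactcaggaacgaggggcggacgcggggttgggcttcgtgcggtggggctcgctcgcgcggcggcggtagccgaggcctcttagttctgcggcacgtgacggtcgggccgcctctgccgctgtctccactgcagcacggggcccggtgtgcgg
Xbp1 (chr14:84604373-84604672, plus strand): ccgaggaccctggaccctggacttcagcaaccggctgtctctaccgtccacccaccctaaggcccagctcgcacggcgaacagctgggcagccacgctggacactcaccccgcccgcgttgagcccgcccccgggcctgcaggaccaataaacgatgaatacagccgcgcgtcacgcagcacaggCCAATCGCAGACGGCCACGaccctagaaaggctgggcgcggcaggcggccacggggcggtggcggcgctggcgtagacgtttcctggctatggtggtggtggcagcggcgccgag
Trib3 (chr3:161275484-161275783, minus strand): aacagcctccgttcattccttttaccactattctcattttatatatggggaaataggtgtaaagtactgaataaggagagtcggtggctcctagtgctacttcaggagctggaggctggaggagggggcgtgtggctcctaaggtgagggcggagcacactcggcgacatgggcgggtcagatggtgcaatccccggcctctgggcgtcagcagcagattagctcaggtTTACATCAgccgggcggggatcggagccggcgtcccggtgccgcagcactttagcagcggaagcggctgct
Sdf2l1 (chr11:97376628-97376927, plus strand): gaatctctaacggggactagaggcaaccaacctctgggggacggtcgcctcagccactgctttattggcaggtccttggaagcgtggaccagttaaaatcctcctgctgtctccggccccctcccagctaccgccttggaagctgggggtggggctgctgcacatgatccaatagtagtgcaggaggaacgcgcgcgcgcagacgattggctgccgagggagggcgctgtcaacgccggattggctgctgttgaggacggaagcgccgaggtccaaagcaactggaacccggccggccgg

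Of the 40 genes, 32 had a window in the RefSeq table. ERSE was found in 9 of the 32 (28.1%), namely Calr, Canx, Creld2, Derl3, Dnajc3, Ero1b, Hsp90b1, Hspa5 and Xbp1, and in 21 of 27457 genes with a window (0.0765%). Hsp90b1 held 2 copies, 1 on each strand. The related ERSE-II (ATTGG, 1 base, CCACG) was found in Dnajb11, Herpud1 and Hyou1, against 0.0619% of all genes, and the core of the unfolded protein response element (TGACGTGG) in Hyou1, against 0.681%. In the Hyou1 window this core overlapped an ERSE-II match. CARE was found in Chac1, Herpud1 and Trib3, against 4.16% of all genes, and none of the 4 motifs was in the Sdf2l1 or Asns window. A match describes the letters of the window and no binding was measured.

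One array stood apart from its group across these genes. Rat 302, of the sand group, lay at least 0.5 (log2) from the mean of its 3 group mates in 14 of the 38 genes, 7 above and 7 below, whereas the other 23 rats did so in 0 to 3 genes each. Over all genes the same rat was as far off in 36.9%, against 36.8% of the 38. Its Hsp90b1 was 10.76, against 12.52 ± 0.06 in its mates (SD, n = 3). This rat also carried a heart muscle marker level of 9.12 (mean of 11 genes), against 6.12 in its mates, with 8 of the 11 at least 2-fold higher. Rat 104, of the air group, had the other high heart muscle level, 9.42 against 6.49 in its mates. Rats 302 and 104 were also the highest of their groups in secretory airway markers, at 9.78 and 9.49 against 8.69 and 8.74 in their mates. The same held for plasma and B cell markers, at 9.14 and 8.87 against 8.52 and 8.47. Rat 604, of the smoke and silica group, had a high proliferation marker level, 8.57 against 7.23. The part of these tissue and cell markers in the results below was not tested. Calls of the 38 genes that depend on rat 302 are given with and without it.

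Smoke was compared with no smoke over all 3 particle conditions, 12 rats against 12. With limma across all 24 arrays, 0 of the 38 genes passed a Benjamini-Hochberg adjusted p of 0.05, while 6.39% of all genes did (908 of 14217). At an unadjusted p under 0.05 there were 2 of the 38, Sdf2l1 and Asns, both higher, against 24.5% of all genes. The median change of the 38 was 0.0067 and that of all genes -0.021 (log2). All 38 intervals at 95% lay within a 1.5-fold change in either direction, with bounds from -0.26 to 0.48. Within that range 22 estimates lay above 0 and 16 below. Without rat 302, 3 of the 38 passed (7.89%), against 10.3% of all genes. These values rest on the brightest probe set of each gene. Of the 38 genes, 13 had other probe sets, 19 in all. Between smoke and no smoke, 9 of the 19 differed in the opposite direction to the brightest and 10 in the same.

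**Figure D1:**
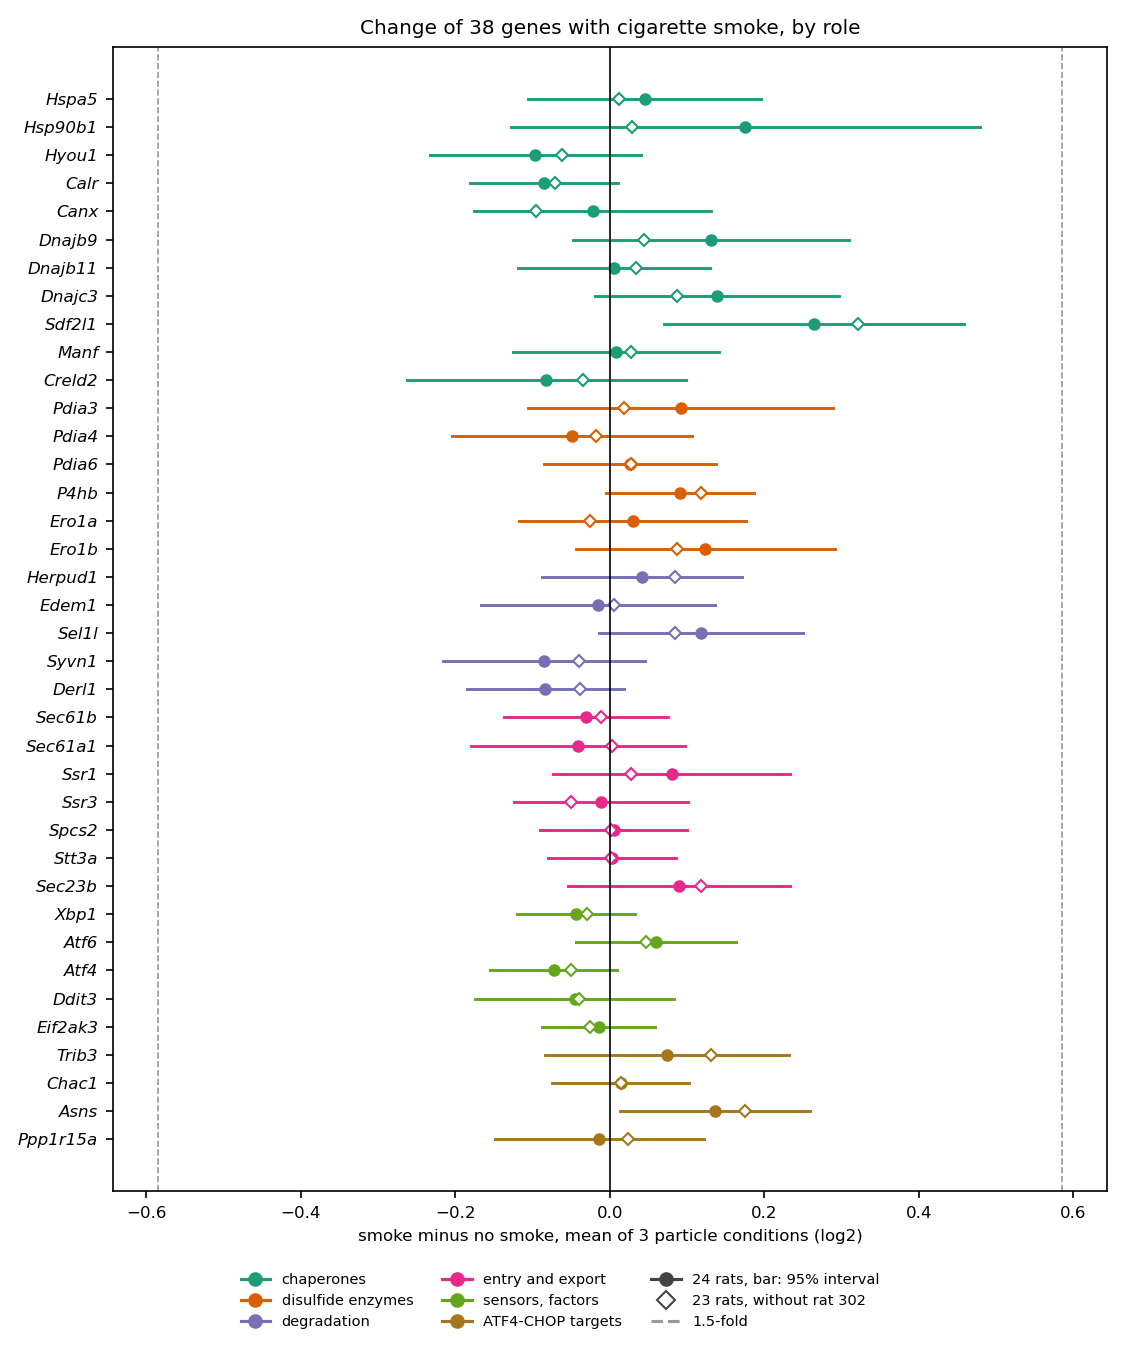
Change of the 38 genes with cigarette smoke (smoke minus no smoke, mean of the 3 particle conditions, log2), ordered and coloured by role. Filled circles with bars are the estimates and 95% intervals from 24 rats, open diamonds the estimates from 23 rats without rat 302, and dashed lines mark 1.5-fold. Every bar stays between the dashed lines, and the bars of Sdf2l1 and Asns do not reach 0.

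Among the 11 chaperones and cofactors, the median change with smoke was 0.0077, and 7 lay above 0. Hspa5, the main Hsp70 chaperone of the endoplasmic reticulum and a standard readout of its stress, was 11.94, 12.04, 12.15 and 11.94 in smoke and silica, 11.86, 12.21, 11.88 and 12.26 in smoke and sand, and 11.78, 12.01, 12.04 and 11.93 in smoke alone. It was 12.25, 11.98, 11.88 and 11.84 in silica, 12.02, 11.69, 12.09 and 12.15 in sand, and 12.05, 12.13, 11.60 and 11.85 in air. All 6 groups overlapped, and the lowest rats were 104 and 302, the pair with high heart muscle markers. The change with smoke was 0.05 ± 0.072 (log2 ± SE, adjusted p = 0.738), with a 95% interval from -0.11 to 0.20.

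Sdf2l1, a cofactor of the Hspa5 chaperone complex that is known as a target of the unfolded protein response, had the largest difference. It measured 9.65, 9.80, 10.08 and 9.82 in smoke and silica, 9.71, 10.14, 9.57 and 10.11 in smoke and sand, and 9.88, 9.78, 10.02 and 9.85 in smoke alone. It measured 10.04, 9.54, 9.50 and 9.65 in silica, 9.38, 10.28, 9.70 and 9.71 in sand, and 9.30, 9.58, 9.29 and 9.26 in air. Every rat given smoke alone, or smoke and silica, lay above every rat in air, whereas the lowest rat of smoke and sand lay within the range of air. The highest rat of all was 302, in the sand group without smoke. Sdf2l1 averaged 9.88 ± 0.10 in smoke alone and 9.36 ± 0.15 in air (SD, n = 4 each), a 1.44-fold difference of 0.52 ± 0.16 (adjusted p = 0.166), and the other 4 exposed groups averaged between 9.69 and 9.88. Without rat 302 the sand group averaged 9.59. Over the 3 particle conditions the smoke change was 0.26 ± 0.094 (adjusted p = 0.0890).

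Without rat 302, Sdf2l1 passed the limma test in 4 comparisons. The smoke change over the 3 particle conditions was then 0.32 ± 0.080 (adjusted p = 0.0151). Against air alone the changes were 0.48 ± 0.13 in smoke and silica (adjusted p = 0.0243), 0.52 ± 0.13 in smoke and sand (adjusted p = 0.0341) and 0.52 ± 0.13 in smoke alone (adjusted p = 0.0486). These last 3 comparisons share the 4 air rats and do not include rat 302. Their estimates were the same with and without it, and what differed was the spread shared by all groups. With rats 104 and 604 left out as well, the change over the 3 particle conditions passed (0.29 ± 0.083, adjusted p = 0.0394) and those against air did not, with adjusted p-values of 0.180 in smoke and silica, 0.0702 in smoke and sand and 0.0799 in smoke alone. The share of all genes that passed without rat 302 was 12.5% in smoke and silica, 3.97% in smoke and sand and 1.89% in smoke alone. All 24 arrays gave adjusted p-values of 0.107, 0.149 and 0.166 in the same order.

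The 2 lectin chaperones of glycoproteins had lower estimates with smoke. Calr (calreticulin) was lower by 0.09 ± 0.046 (change -0.09, adjusted p = 0.261) and Canx (calnexin) by 0.02 ± 0.074 (change -0.02, adjusted p = 0.881). Canx was 11.86, 11.87, 11.83 and 11.81 in smoke and silica, 11.83, 11.96, 11.82 and 11.77 in smoke and sand, and 11.73, 11.80, 11.79 and 11.86 in smoke alone, against 11.90, 11.95, 11.96 and 11.81 in silica, 11.97, 11.07, 11.95 and 11.94 in sand, and 11.94, 11.91, 11.88 and 11.92 in air. The 4 smoke rats lay below the 4 air rats, and without rat 302, the 11.07 of the sand group, the smoke change of Canx passed at -0.10 ± 0.027 (adjusted p = 0.02996). In the means over 12 rats each, which include rat 302, the brightest of the gene's 3 probe sets differed by -0.02 with smoke. The other 2, both dimmer, were higher by 0.17 and 0.29. These 2 were not compared with rat 302 left out, so the sign of a Canx change was left undecided.

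Hsp90b1, the Hsp90 paralogue of the endoplasmic reticulum, had the widest spread among rats of one group, an SD of 0.38 pooled over the groups, and 0.14 without rat 302. It was 12.45, 12.39, 12.60 and 12.33 in smoke and silica, 12.48, 12.66, 12.47 and 12.52 in smoke and sand, and 12.36, 12.43, 12.43 and 12.48 in smoke alone. It was 12.53, 12.51, 12.38 and 12.20 in silica, 12.48, 10.76, 12.48 and 12.60 in sand, and 12.52, 12.53, 12.05 and 12.46 in air. Apart from rats 302 and 104 all values lay between 12.20 and 12.66, and without rat 302 the 3 sand rats lay just above those of smoke alone. Its smoke change was 0.18 ± 0.15 (adjusted p = 0.480), and 0.03 without rat 302. The other chaperones were Hyou1, Dnajb9, Dnajb11, Dnajc3, Manf and Creld2, with smoke changes from -0.10 for Hyou1 to 0.14 for Dnajc3, none past the test.

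**Figure D2:**
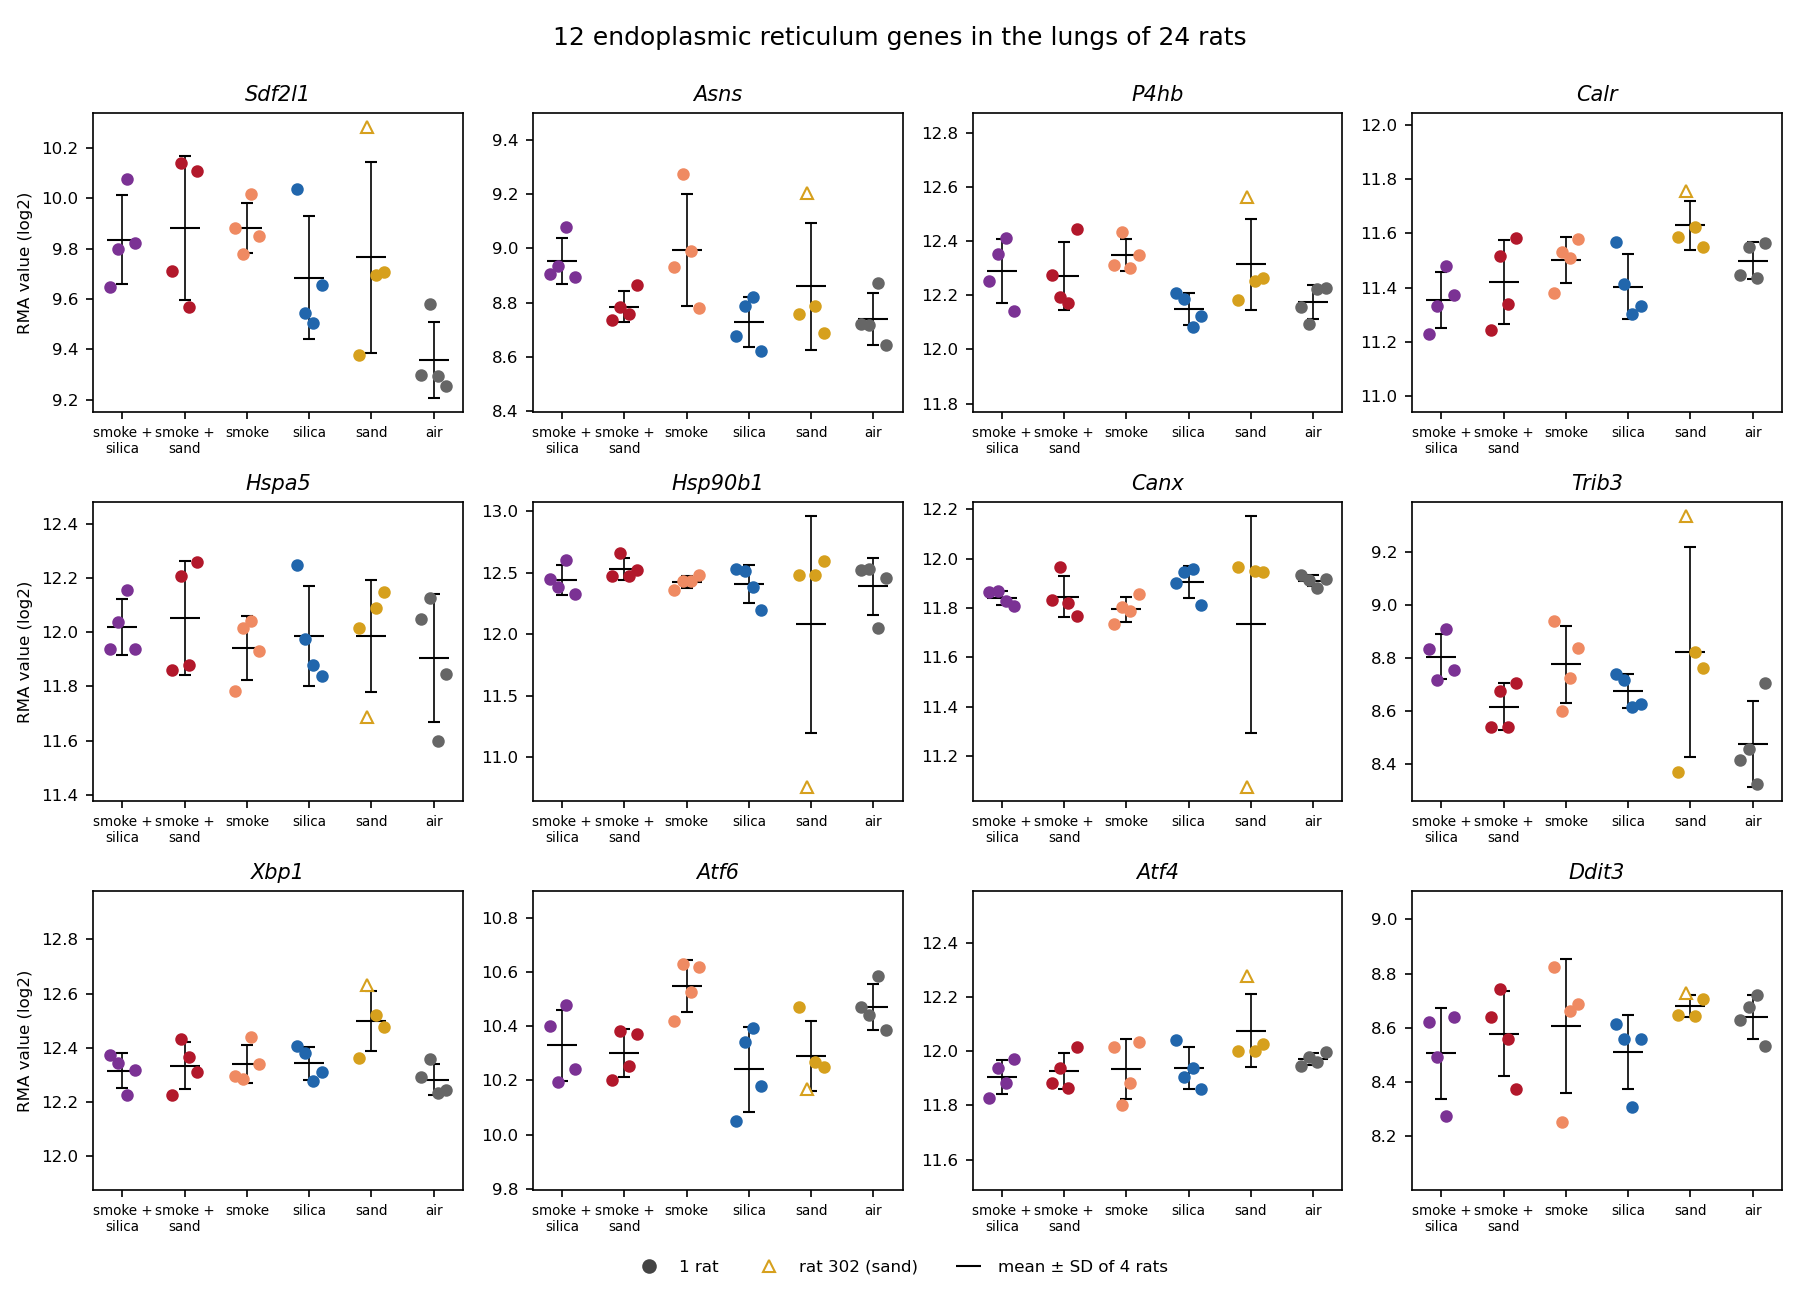
RMA values (log2) of 12 genes in each of 24 rats, with groups along the horizontal axis, 1 point per rat, and the mean ± SD of 4 rats in black. The open triangle is rat 302 of the sand group, which sits at an end of the sand group in every panel. In the Sdf2l1 panel the smoke rats at 9.78 to 10.02 lie above the air rats at 9.26 to 9.58.

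Of the 6 enzymes of disulfide formation, 5 lay above 0 with smoke and 0 passed. P4hb, the protein disulfide isomerase that is also a subunit of prolyl 4-hydroxylase, was 12.25, 12.35, 12.41 and 12.14 in smoke and silica, 12.27, 12.19, 12.17 and 12.45 in smoke and sand, and 12.31, 12.43, 12.30 and 12.35 in smoke alone. It was 12.21, 12.19, 12.08 and 12.12 in silica, 12.18, 12.56, 12.25 and 12.26 in sand, and 12.16, 12.09, 12.22 and 12.23 in air. The smoke rats lay above the air rats without overlap. The smoke change over the 3 particle conditions was 0.09 ± 0.046 (adjusted p = 0.233). The isomerases Pdia3, Pdia4 and Pdia6 and the oxidases Ero1a and Ero1b, which pass oxidizing power to the isomerases, had smoke changes from -0.05 (Pdia4) to 0.12 (Ero1b). Dimmer probe sets gave 0.20 for Ero1a, -0.09 for Ero1b and 0.01 for Pdia3.

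The 5 measured genes of degradation had smoke changes from -0.08 for Syvn1, the ubiquitin ligase of the pathway, to 0.12 for Sel1l, its adaptor, and 0 passed. Herpud1, which recruits the ligase complex and is a target of both ATF6 and ATF4, was 0.26 ± 0.11 higher in smoke alone than in air (adjusted p = 0.374). Its interaction of smoke with silica was -0.36 ± 0.15 (adjusted p = 1.00), the only one of the 38 under an unadjusted p of 0.05 in that interaction. Edem1, a lectin that hands misfolded glycoproteins on, and Derl1, a channel component, completed the set.

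The 7 genes of entry into and export from the endoplasmic reticulum encode channel subunits (Sec61a1, Sec61b), associated receptors (Ssr1, Ssr3), a signal peptidase subunit (Spcs2), an oligosaccharyl transferase (Stt3a) and a coat protein of export vesicles (Sec23b). By the brightest probe sets their smoke changes ran from -0.04 to 0.09, the highest that of Sec23b, and 0 passed. Dimmer probe sets gave 0.13 for Ssr1, -0.14 and 0.17 for Ssr3, -0.15 for Stt3a, and 0.03 and 0.07 for Sec61a1. Sec23b was 10.42, 10.73, 11.00 and 10.53 in smoke and silica, 10.56, 10.60, 10.60 and 10.92 in smoke and sand, and 10.61, 10.92, 10.88 and 10.51 in smoke alone. It was 10.70, 10.62, 10.59 and 10.45 in silica, 10.54, 10.91, 10.57 and 10.60 in sand, and 10.64, 10.59, 10.44 and 10.57 in air. The smoke-exposed rats with the 4 highest values were 604, 203, 406 and 204, and rat 302 of the sand group was as high. The mean of 17 secretory airway markers ran from 8.58 to 9.41 in smoke and silica, 8.96 to 9.80 in smoke and sand, and 8.88 to 9.94 in smoke alone, against 8.42 to 9.14 in silica, 8.62 to 9.78 in sand, the highest being rat 302, and 8.72 to 9.49 in air. Its part in the level of Sec23b was not tested. In lung tissue, fewer cells of a type and less RNA per cell cannot be told apart.

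The 5 measured genes of the sensors and their transcription factors had an SD among rats of one group of 0.07 (Eif2ak3), 0.08 (Xbp1), 0.09 (Atf4), 0.12 (Atf6) and 0.15 (Ddit3). The first 3 were the lowest of all 38 genes from 24 rats, but without rat 302 Derl1 (0.04), Canx (0.05) and Dnajb9 (0.06) were lower than these 3. With smoke, 4 of the 5 lay below 0, from -0.07 for Atf4 to 0.06 for Atf6, and 0 passed. Splicing of Xbp1, cleavage of ATF6 and phosphorylation are not measured by these probe sets.

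Xbp1 was 12.37, 12.35, 12.23 and 12.32 in smoke and silica, 12.23, 12.43, 12.37 and 12.31 in smoke and sand, and 12.30, 12.28, 12.44 and 12.34 in smoke alone. It was 12.41, 12.38, 12.28 and 12.31 in silica, 12.36, 12.63, 12.52 and 12.48 in sand, and 12.29, 12.36, 12.23 and 12.24 in air. The 4 sand rats lay above the highest air rat, rat 301 only narrowly. Sand in rats without smoke gave a change of 0.22 ± 0.064 (adjusted p = 0.289), and 0.17 without rat 302. Within sand, smoke gave -0.16 ± 0.064 (adjusted p = 0.158). Both comparisons share the sand rats.

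Atf6 was 10.40, 10.19, 10.48 and 10.24 in smoke and silica, 10.20, 10.38, 10.25 and 10.37 in smoke and sand, and 10.42, 10.63, 10.53 and 10.62 in smoke alone. It was 10.05, 10.34, 10.39 and 10.18 in silica, 10.47, 10.17, 10.27 and 10.25 in sand, and 10.47, 10.44, 10.58 and 10.39 in air. With smoke and without it, the means of both particle groups lay below the mean of the group without a particle. Averaged over smoke and no smoke, silica changed the level by -0.22 ± 0.061 (adjusted p = 0.116) and sand by -0.21 ± 0.061 (adjusted p = 0.482), 2 comparisons that share the rats without particles. Without rat 302 the silica change passed, at -0.22 ± 0.058 (adjusted p = 0.0351), as the only one of the 38 and beside 3.81% of all genes. It did not pass without rats 302, 104 and 604 together (-0.23 ± 0.059, adjusted p = 0.0613).

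Atf4 was 11.83, 11.94, 11.88 and 11.97 in smoke and silica, 11.88, 11.94, 11.86 and 12.01 in smoke and sand, and 12.02, 11.80, 11.88 and 12.03 in smoke alone. It was 12.04, 11.91, 11.94 and 11.86 in silica, 11.9991, 12.28, 11.9997 and 12.03 in sand, and 11.94, 11.98, 11.96 and 11.99 in air. Every sand rat lay above every rat of air and of smoke and silica, also without rat 302, while the ranges of sand overlapped those of smoke and sand, smoke alone and silica. The smoke change was -0.07 ± 0.040 (adjusted p = 0.265). Ddit3, which encodes CHOP, a factor that promotes cell death under lasting stress, was 8.62, 8.49, 8.27 and 8.64 in smoke and silica, 8.64, 8.74, 8.56 and 8.37 in smoke and sand, and 8.82, 8.25, 8.66 and 8.69 in smoke alone. It was 8.61, 8.56, 8.31 and 8.56 in silica, 8.65, 8.73, 8.64 and 8.70 in sand, and 8.63, 8.68, 8.72 and 8.53 in air. The sand rats lay above those of silica and of smoke and silica, and all other pairs of groups overlapped. The smoke change of Ddit3 was -0.05 ± 0.062 (adjusted p = 0.684), with an interval from -0.17 to 0.08.

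Of the 4 targets of ATF4 or CHOP, 3 lay above 0 with smoke, and all 4 did without rat 302. Asns, the asparagine synthetase, was 8.91, 8.94, 9.08 and 8.90 in smoke and silica, 8.73, 8.78, 8.76 and 8.87 in smoke and sand, and 8.93, 9.27, 8.99 and 8.78 in smoke alone. It was 8.68, 8.79, 8.82 and 8.62 in silica, 8.76, 9.21, 8.79 and 8.69 in sand, and 8.72, 8.72, 8.87 and 8.64 in air. All 4 rats of smoke and silica lay above all 4 of silica and of air, whereas smoke and sand overlapped sand. Its smoke change was 0.14 ± 0.059 (adjusted p = 0.158) from 24 rats and 0.17 ± 0.047 (adjusted p = 0.0239) without rat 302.

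Trib3, a pseudokinase that restrains ATF4 and CHOP, was 8.83, 8.72, 8.91 and 8.75 in smoke and silica, 8.54, 8.68, 8.54 and 8.71 in smoke and sand, and 8.94, 8.60, 8.72 and 8.84 in smoke alone. It was 8.74, 8.72, 8.61 and 8.63 in silica, 8.37, 9.33, 8.82 and 8.76 in sand, and 8.41, 8.46, 8.33 and 8.70 in air. Every rat of smoke and silica lay above every air rat, and the sand group held the highest rat of all and reached down into the range of air. The change in smoke and silica against air was 0.33 ± 0.13 (adjusted p = 0.180) from 24 rats. It was 0.33 ± 0.095 (adjusted p = 0.0282) without rat 302, where 12.5% of all genes passed. Leaving out rats 302, 104 and 604 together gave 0.24 ± 0.11 (adjusted p = 0.218). Ppp1r15a, the phosphatase subunit that restores translation, and Chac1, which breaks down glutathione, had smoke changes of -0.01 and 0.01. That of Ppp1r15a turned to 0.02 without rat 302.

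The study crossed smoke with each particle to ask whether the combination differs from its parts. In the interaction of smoke with sand, 0 of the 38 genes passed, against 0.00703% of all genes (1 gene), and in that with silica 0 passed against 0.0% of all genes. At an unadjusted p under 0.05 there were 4 and 1 of the 38, against 8.84% and 2.24% of all genes. The 4 were Trib3 at -0.51 ± 0.19, Ppp1r15a at -0.41 ± 0.16, Xbp1 at -0.22 ± 0.090 and Asns at -0.33 ± 0.14, with adjusted p-values from 0.533 to 0.553. All 4 were highest of the sand group in rat 302, and without it their estimates were closer to 0, as -0.34 for Trib3 and -0.22 for Asns. Trib3, Ppp1r15a (-0.30) and Xbp1 (-0.18) stayed under the unadjusted p without rat 302, and Asns did not. Sel1l came under it, at -0.41 ± 0.14 (adjusted p = 0.503), the lowest estimate of the 38. Intervals were wide: 26 of 38 genes lay within 1.5-fold for sand and 34 of 38 for silica.

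The combined exposures were also set against air alone. In smoke and silica 0 of the 38 passed, against 3.77% of all genes, and 3 were under an unadjusted p of 0.05 (Sdf2l1, Trib3 and Asns), beside 18.5% of all genes. In smoke and sand 0 passed, against 0.978%, and Sdf2l1 alone was under that p, beside 10.9% of all genes. Without rat 302 Sdf2l1 and Trib3 passed in smoke and silica (5.26% of the 38, against 12.5% of all genes). In smoke and sand Sdf2l1 then passed (2.63%, against 3.97% of all genes). The median change of the 38 was 0.05 in smoke and silica and 0.03 in smoke and sand, against -0.02 and -0.01 over all genes.

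Each exposure in turn left the 38 genes below the test. Smoke alone against air gave 0 calls against 0.893% of all genes, with 6 of the 38 under an unadjusted p of 0.05, all higher, beside 9.95% of all genes. Smoke within sand gave 0 against 1.29%, and smoke within silica 0 against 0.00703% (1 gene). Sand and silica, averaged over smoke and no smoke, gave 0 against 0.0% and 0 against 0.345%. In rats without smoke, sand gave 0 against 0.0281% and silica 0 against 0.141%, with 7 and 1 of the 38 under the unadjusted p, beside 10.2% and 5.0% of all genes. Sand against silica gave 0 against 0.12%. Calr at 0.15 ± 0.057 (adjusted p = 0.317) and Hyou1 at 0.20 ± 0.080 (adjusted p = 0.329) were under the unadjusted p there, 5.26% of the 38 beside 12.2% of all genes. In all, 39 of 494 tests of these genes had an unadjusted p under 0.05. By comparison this share ran from 2.63% to 18.4% of the 38, and from 2.24% to 24.5% of all genes.

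**Figure D3:**
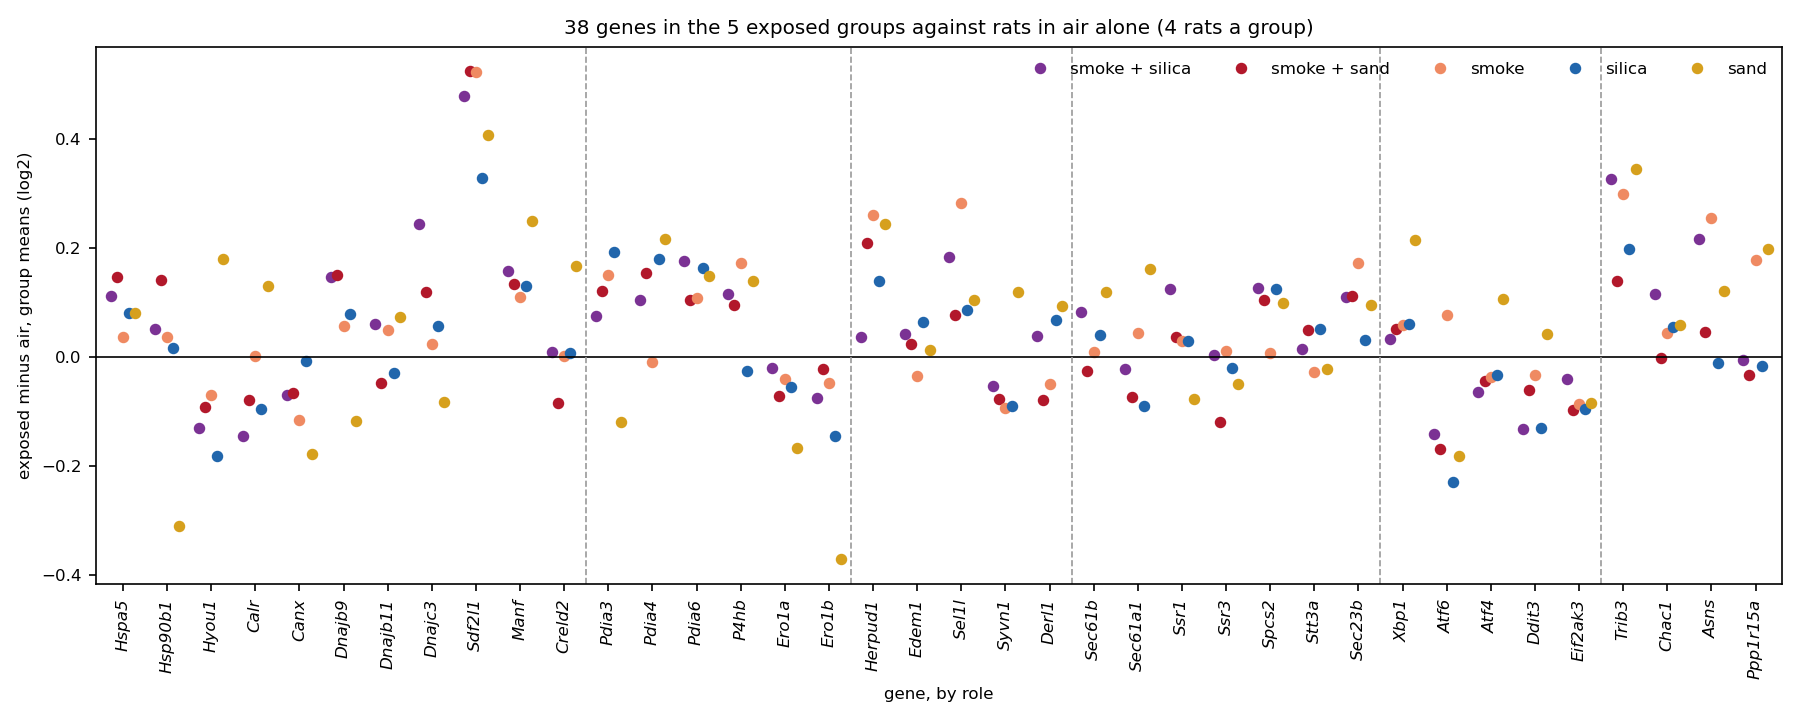
Difference of each exposed group from air (group means of 4 rats, log2) for the 38 genes ordered by role, with role boundaries dashed. Most points lie between -0.2 and 0.2. Sdf2l1 is above air in all 5 exposed groups, by 0.33 to 0.52, and these 5 differences share the 4 air rats. All sand points include rat 302, and without it Sdf2l1 in sand was 0.24 above air. The lowest points of the sand group are Ero1b at -0.37 and Hsp90b1 at -0.31.

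Some rats were at one end of their group in many of the 38 genes. Rat 406 of smoke and sand was the highest of its group in 26 of the 38 (68.4%, against 31.5% of all genes), rat 604 of smoke and silica in 22 (57.9%, against 36.4%), and rat 501 of silica in 21 (55.3%, against 33.1%). Rat 602 of smoke and silica, 201 of smoke, 504 of silica and 104 of air were each the lowest of their group in 18 (47.4%), against 26.1% to 28.8% of all genes. Rat 302 was the highest of its group in 21, a share of 55.3% against 59.6% of all genes, and the lowest in 13. These shares are a description, since the genes of one array are not independent. The distances were small outside rat 302: a typical gene lay 0.16 from the mean of the mates in rat 406 and 0.19 in rat 604, against 0.41 in rat 302 (medians over 38 genes).

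**Figure D4:**
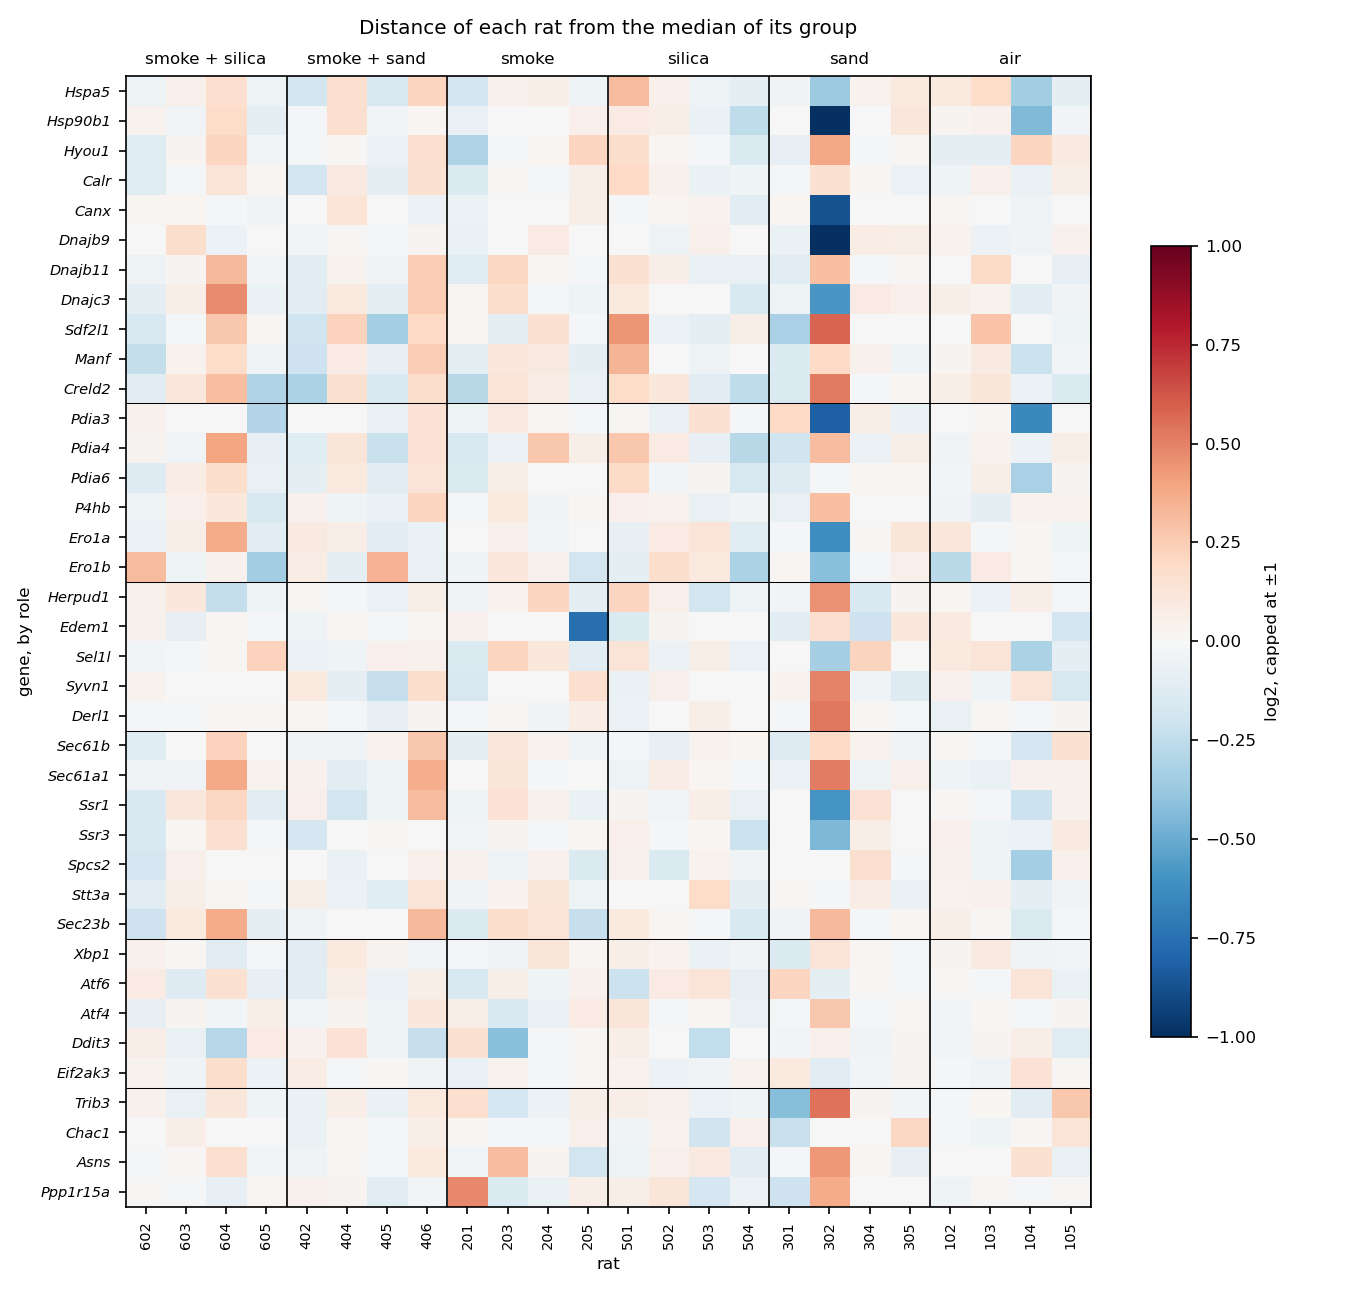
Distance of each rat from the median of its own group (log2, colour capped at 1 in either direction), with rats in columns by group and the 38 genes in rows by role. Rat 302 of the sand group stands out in both colours, with Hsp90b1, Dnajb9, Pdia3 and Canx low and Sdf2l1, Trib3 and Creld2 high. Rat 104 of the air group is low for Hsp90b1, Pdia3 and Hspa5 but not for Canx or Dnajb9.

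In the 2 rats with high heart muscle markers, some genes fell on the same side and others did not. Rat 302 had Pdia3 at 11.36 and rat 104 at 11.65, the 2 lowest of 24, and these rats also had the 2 lowest values of Hsp90b1 and of Hspa5. Canx and Dnajb9 were the lowest of 24 in rat 302, at 11.07 and 9.37, and were 11.88 and 10.23 in rat 104, where its mates had 11.91 to 11.94 and 10.21 to 10.31. The RNA integrity number of rat 302 was 8.8, within the 8.1 to 9.8 of the 19 arrays that had one.

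The genes around these 38 in the same pathways were counted in 6 further lists of 158 entries. With smoke, 5 rose and 7 fell (7.59%, against the 6.39% of all genes given above). Qsox1, a sulfhydryl oxidase that makes disulfides in secreted proteins, rose by 0.72 ± 0.097 (adjusted p = 1.24e-04), and Fkbp7, a prolyl isomerase of the endoplasmic reticulum, fell by 0.28 ± 0.050 (adjusted p = 0.00207), among 29 folding genes. Among 19 degradation genes Ufd1, part of the p97 extraction complex, fell by 0.15. Among 27 genes of vesicle traffic Sar1a, the GTPase of export vesicles, fell by 0.11. Among 27 of translocation and glycosylation 0 passed, with Srp9 at -0.11 (adjusted p = 0.0880) and Sec11c at 0.18 (adjusted p = 0.100). In smoke and silica against air, 3 of the 158 entries rose and 2 fell (3.17%, against 3.77% of all genes), and without rat 302 these were 16 and 5 (13.3%, against 12.5%).

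In stress signalling, 1 of 28 genes rose and 2 fell. Creb3l1, a membrane-bound factor of secretory cells related to ATF6, rose by 0.23 ± 0.066 (adjusted p = 0.0389), and the cell death genes Bcl2l11 and Bbc3 fell by 0.20 ± 0.058 and 0.16 ± 0.048. In the amino acid response, 3 of 28 rose and 2 fell. The serine and one-carbon enzymes Psat1 and Mthfd2 rose by 0.51 ± 0.11 (adjusted p = 0.00570) and 0.31 ± 0.073 (adjusted p = 0.0138). Cth, which makes cysteine, fell by 0.48 ± 0.11 (adjusted p = 0.0159) and Slc3a2, an amino acid carrier subunit, by 0.19 ± 0.055 (adjusted p = 0.0400). Of 23 cytosolic heat shock genes, Hspa4l rose by 0.68 ± 0.18 (adjusted p = 0.0280) and 0 fell.

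Cell markers moved with the same comparison. With smoke, 10 of 16 alveolar macrophage markers and 2 of 9 neutrophil markers rose, 5 of 10 T and NK cell markers and 2 of 9 plasma and B cell markers fell, and 4 of 17 secretory airway markers rose while 2 fell. With rat 302 left out, 11 macrophage and 3 neutrophil markers rose. Then 5 T and NK cell markers and 1 plasma and B cell marker fell, and 6 secretory airway markers rose while 2 fell. The macrophage marker mean ran from 10.85 to 11.48 in smoke and silica, 10.41 to 11.03 in smoke and sand, and 10.60 to 11.07 in smoke, against 10.17 to 10.46 in silica, 9.95 to 10.41 in sand and 9.85 to 10.05 in air. Jchain, a plasma cell gene, was lower with smoke by 0.70 ± 0.21 (change -0.70, adjusted p = 0.0471), but did not pass without rat 302. Pou2af1, of the same list, changed by -0.62 ± 0.15 (adjusted p = 0.0155), and by -0.53 ± 0.13 (adjusted p = 0.0130) without rat 302. Of the secretory airway markers, Agr2, an isomerase of mucus cells, was higher by 1.66 ± 0.37 (adjusted p = 0.0105). The 2 that fell were Cyp4b1 at -0.71 ± 0.14 (adjusted p = 0.00302) and Aqp5 at -0.24 ± 0.051 (adjusted p = 0.00761). The part of these cell markers in the level of the 38 genes was not tested.

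The 11 measured genes whose window held ERSE or ERSE-II, including the Hspa5 and Hsp90b1 windows printed above, had a median smoke change of 0.0056, with 6 above 0 and a range from -0.10 to 0.18. Without rat 302 the median was 0.012 and the highest change 0.09. The other 20 measured genes with a window had a median of 0.0037, 11 above 0 and a range from -0.08 to 0.26, the upper end being Sdf2l1. Without rat 302 their median was 0.0098 and 13 lay above 0.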

How the data were processed

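Gene expression was measured on 24 Affymetrix rat arrays, 1 for each rat. RMA (background correction, quantile normalization and probe summary) produced these log2 values before they were deposited, per the submitters' processing notes. Neither its version nor a scan batch is given in the sources used here. Precision is limited by having 4 arrays a group. Groups and rat numbers were taken from the labels, and rat numbers do not pair groups. Of 31099 probe sets, 57 controls were left out, and 20826 of the others had 1 gene symbol, 436 several and 9780 none in the platform annotation. The brightest single-symbol probe set stood for each of 14217 genes.

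One model of 6 group means was fitted in R 4.3.3 using limma 3.58.1, with lmFit followed by eBayes and 18 residual degrees of freedom, and 13 contrasts were tested two-sided with Benjamini-Hochberg adjusted p-values over all genes, called under 0.05. Intervals at 95% use the moderated SE. On data simulated from the real means and spreads, 200 genes were changed by 0.5 (log2). For smoke over the 3 particle conditions the fit recovered 176 of 200, with 11 false calls. For smoke alone against air it recovered 113 of 200, with 6 false calls. The largest estimates of the 38 genes in these comparisons were 0.26 and 0.52, both for Sdf2l1. The simulated noise was independent and normal, with the same spread for a gene on every array. No simulated array stood apart as rat 302 did, so recovery in the real arrays may differ. Recovery of changes below 0.5 was not tested. Tables and motif counts were made with Python 3.11.15 and pandas 2.3.3, and figures with matplotlib.

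Alternatives were array weights, trended moderation, only the arrays compared, a level filter, the mean of all probe sets, 2 normalizations, the RNA integrity number as a covariate, and leaving out rats. The rule for named genes gives Hspa5, Xbp1, Atf4 and Ddit3, any gene of the 38 called in the model of all arrays, and the 4 others with the largest smoke statistic, which were Sdf2l1, Asns, P4hb and Calr. From the other pathway lists it gives up to 4 called genes or the 2 with the largest statistic. All other genes given by rat were chosen after their values were seen. The members, lists and the choice of rat 302 as an array to leave out were made with earlier results of these data known.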

Additional observations from a re-analysis of the deposited data

Results flagged for a closer look

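In 23 of 228 sets of 4 rats (38 genes in 6 groups), 1 rat lay far from the other 3 by Dixon's test. Chance flags about 1 in 20 sets of independent, normally distributed values. The genes of one array are not independent, and no share over all genes is set beside this count. Of the 23, 8 were rat 302. In the sand group rat 302 was the lowest for Hsp90b1 (10.76, against 12.48 in the nearest rat), Canx (11.07, against 11.94), Dnajb9 (9.37, against 10.31), Ero1b (7.05, against 7.45) and Ssr3 (11.55, against 11.99). It was the highest for Derl1 (11.09, against 10.58), Sec23b (10.91, against 10.60) and Atf4 (12.28, against 12.03). Spcs2 was highest in rat 304 of the same group (11.11, against 10.95).

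In smoke and silica, Pdia3 was lowest in rat 605 (11.99, against 12.28), and Sel1l was highest in that rat (9.41, against 9.19), Syvn1 in rat 602 (9.07, against 9.04), Sec61a1 in rat 604 (11.13, against 10.78) and Chac1 in rat 603 (7.91, against 7.85). In smoke and sand, Ssr3 was lowest in rat 402 (11.70, against 11.86) and Sec23b highest in rat 406 (10.92, against 10.60). In smoke, Edem1 was lowest in rat 205 (10.65, against 11.40) and Sec61a1 highest in rat 203 (11.00, against 10.87). In silica, rat 501 was highest for Manf (11.22, against 10.88) and lowest for Edem1 (11.21, against 11.35). In air, rat 104 was lowest for Hsp90b1 (12.05, against 12.46) and Pdia3 (11.65, against 12.29), and rat 103 was highest for Sdf2l1 (9.58, against 9.30).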

How the results depend on the processing

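The counts of the 38 genes called were 0 in all 13 comparisons from 24 arrays. Leaving out rat 302 gave 3 for smoke over the 3 particle conditions (Canx, Sdf2l1 and Asns), 2 for smoke and silica against air (Sdf2l1 and Trib3), and 1 each for smoke and sand against air, smoke alone against air (Sdf2l1 in both) and silica (Atf6). Of all 14217 genes, 1463, 1777, 564, 269 and 542 were then called, in the same order. Leaving out rats 302, 104 and 604 gave 3 for smoke (the 3 genes that passed without rat 302), among 1182 of all genes, and 0 in the other 12 comparisons. Leaving out each rat in turn gave 0 to 3 for smoke, the 3 being without rat 302, and 0 in the other 12 comparisons among their own rats. Array weights, which gave rat 302 a weight of 0.0446, called 5 of the 38 for smoke (Canx, Sdf2l1, P4hb, Herpud1 and Asns, among 2651 genes), 4 for smoke and silica (among 2477), 1 for smoke and sand (1172), 4 for smoke alone (1119) and 1 for silica (843). Fitting only the arrays compared called 1 (Sdf2l1) for smoke alone (among 169 genes) and 1 for smoke and silica (among 555). The other 289 counts, which include both particle interactions under every alternative, were 0.

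Among the genes and comparisons recomputed under each alternative, estimates changed sign in 6 cases, and the cause was not tested. Over all 38 genes the smoke change also turned in 4 without rat 302: Sec61a1 was 0.0024 (-0.04 from 24 rats), Edem1 0.0050 (-0.01), Ppp1r15a 0.02 (-0.01) and Ero1a -0.03 (0.03). The smoke change of Canx was 0.14 over the mean of its probe sets, and 0.0037, 0.0020 and 0.0014 without rats 301, 304 and 305 of the sand group, and over all single omissions it ran from -0.0954 (without rat 302) to 0.0037. That of Herpud1 was -0.0068 with the RNA integrity number as a covariate and -0.0082 on the same 19 arrays without it. No paired analysis was possible because the rat numbers are unique to each group. Quantile normalization in RMA would hide a shift common to the bulk of genes, and 8 of the 40 genes had no promoter window.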
